A study of Homo sapiens with 8 samples.

Results

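Transcripts of 8 genes were followed in IMR32 cells: 3 that encode the enzymes leading to the disialoganglioside GD2 (ST3GAL5, ST8SIA1 and B4GALNT1) and 5 that encode surface proteins studied as antibody or cell therapy targets in neuroblastoma (GPC2, CD276, L1CAM, NCAM1 and DLK1). They were chosen by name, and their 8 rows were found among the 58787 gene rows of the deposited counts. All 8 passed the filter on low counts. IMR32 is an established human neuroblastoma line with amplified MYCN, labelled wild type and neuroblast. Cells of the treated group received CR31B for 6 h at its IC50, a concentration that the labels do not give as a number. Cells of the control group received 0.1% DMSO, the vehicle. Each group had 4 libraries of polyadenylated RNA, described as biological replicates of this 1 line, so the p-values measure the spread between these cultures. CR31B belongs to the rocaglates, compounds that clamp the RNA helicase eIF4A onto messenger RNA and block translation initiation.

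GD2 is a sialic acid-bearing glycolipid that is abundant on neuroblastoma cells and is the target of the antibody dinutuximab. ST3GAL5 adds a sialic acid to lactosylceramide to make GM3, ST8SIA1 adds another to make GD3, and B4GALNT1 adds N-acetylgalactosamine to make GD2. The surface proteins are of other kinds: GPC2 is a heparan sulfate proteoglycan held by a glycosylphosphatidylinositol (GPI) anchor, CD276 (B7-H3) is a member of the B7 immune checkpoint family, L1CAM and NCAM1 are neural adhesion molecules of the immunoglobulin superfamily, and DLK1 is an imprinted relative of the NOTCH ligands. Only RNA was measured, so the values describe neither GD2 nor protein on the cell surface.

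The libraries held 43687828 to 64715535 counts. Replicate 1 of each group was read from both ends of the fragment, whereas replicates 2 to 4 were read from one end. On the first principal component of log2 CPM (CPM being the count of a gene relative to its library's total after edgeR's TMM scaling) the library labelled CR31B replicate 1 scored -26.4, beside the single-end DMSO libraries at -29.4 to -25.8. The library labelled DMSO replicate 1 scored 32, beside the single-end CR31B libraries at 19 to 29. Pair 1 turned the sign of 98.9% of the 6901 genes that differed between treatments in replicates 2 to 4. As a distance between libraries, the mean chi-square per gene of the library labelled CR31B replicate 1 was 9.46 to 17.3 to the single-end DMSO libraries and 94.4 to 144 to the single-end CR31B libraries. The corresponding distances of DMSO replicate 1, as labelled, were 8.01 to 20.7 to the single-end CR31B libraries and 88.8 to 109 to the single-end DMSO libraries. Whether the labels of pair 1 were exchanged was not tested, and this touches every value over all 8 libraries, of pair 1 or of the interaction. The labels were kept as given. Values of the 8 genes are shown for pairs 2 to 4 and for pair 1 apart, those of the wider lists come from the single-end libraries unless pair 1 is named, and levels per length, correlations and marker sums use all 8 libraries. Layout and pair 1 cannot be told apart, since no other pair was sequenced paired-end.

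Over all 8 libraries as labelled, with layout as a covariate, edgeR's quasi-likelihood test with Benjamini-Hochberg adjustment called 0 of the 8 genes at an adjusted p under 0.05, where 0% of 16518 tested genes were called. At an unadjusted p under 0.05 there were 205 genes, or 1.24%, and none of the 8 was among them. Their adjusted p ranged from 0.707 to 0.956, and DESeq2 and limma voom also called 0 genes. In the 6 single-end libraries the same test called 4 of the 8, of which 2 rose and 2 fell, against 41.3% of 16696 genes in either direction, 23.8% higher and 17.6% lower. In this fit without a block the share of the 8 that changed was thus near that of all genes. With the replicate number as a block 3 of the 8 rose and 4 fell, B4GALNT1, ST3GAL5 and L1CAM being the added ones. Only DLK1 was then not called, where 51.1% of all genes were called, and the difference from them was not tested. Without the block the median log2 fold change of the 8 was -0.11, and that of all genes -0.01. A change of at least 2-fold was reached by 0 of the 8, against 2.68% of all genes. The groups did not overlap in these 6 libraries for 5 of the 8 genes, against 52.1% of all genes, and overlapped in the 8 libraries for every one of the 8, where 0.66% of all genes stayed apart.

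The member-by-member plot of CPM shows these levels by label, with replicate 1 drawn as open triangles.

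**Figure D1:**
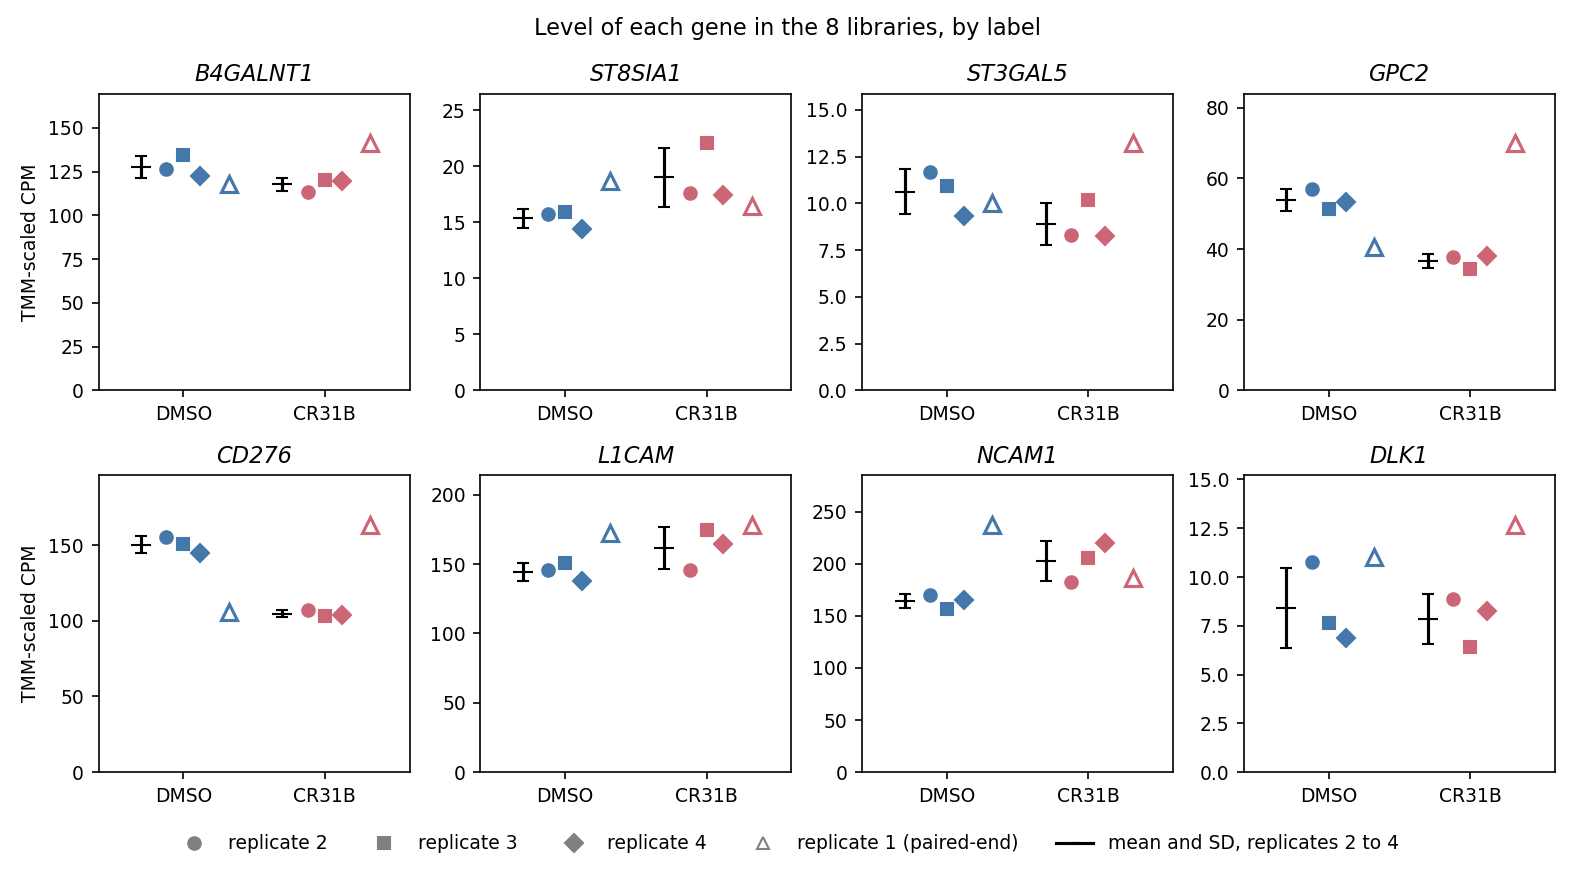
TMM-scaled CPM (y axis, from 0) of each of the 8 genes in the 4 DMSO and 4 CR31B libraries (x axis), with the mean and SD of replicates 2 to 4 as black bars. For GPC2 and CD276 the open triangle of the library labelled CR31B replicate 1 lies above its group and near the DMSO libraries, and that of DMSO replicate 1 lies below its own.

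Of the 3 enzymes on the direct route to GD2, ST8SIA1 rose in the single-end CR31B libraries. B4GALNT1 and ST3GAL5 had negative estimates. They did not pass the main test, which has no replicate block, and passed as lower with the block. ST8SIA1, the GD3 synthase (ENSG00000111728, chr12:22063773-22437041, minus strand, GRCh38), stood at 17.6, 22.1 and 17.4 CPM in CR31B replicates 2, 3 and 4 and at 15.8, 15.9 and 14.4 CPM in the matching DMSO libraries. Every single-end CR31B library was above every single-end DMSO library, and replicate 3 was the highest. This was a log2 fold change of 0.31 ± 0.099 (SE, n = 3 per group, edgeR with Benjamini-Hochberg adjusted p = 0.0294), a 1.24-fold higher level. In pair 1 the library labelled CR31B held 16.4 CPM and that labelled DMSO 18.6 CPM, a log2 difference of -0.18. The rise was lost when offsets for GC content and exon length were added (0.06, adjusted p = 0.673), with upper quartile scaling (0.22, adjusted p = 0.137) and with total count scaling (0.23, adjusted p = 0.118). It was also lost when 1 library was left out, with an adjusted p of 0.0821 without CR31B replicate 3 and of 0.0546, 0.0569 and 0.0986 without DMSO replicates 2, 3 and 4. Of the 8 genes ST8SIA1 has the lowest GC content in its longest transcript, at 39.8%.

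B4GALNT1, the GM2/GD2 synthase (ENSG00000135454, chr12:57623410-57633355, minus strand), stood at 113.3, 120.0 and 119.6 CPM in CR31B replicates 2, 3 and 4 and at 126.3, 134.5 and 122.2 CPM in the matching DMSO libraries. The CR31B libraries were all lower, by a small margin in pair 4. The log2 fold change was -0.12 ± 0.053 (SE, n = 3 per group, edgeR adjusted p = 0.105), with a 95% interval of -0.23 to 0.0011. It passed the threshold in 6 of 19 alternatives, as lower each time. With the replicate number as a block the estimate was the same (edgeR adjusted p = 0.0407). The value was -0.16 with GC and length offsets (adjusted p = 0.0389), and with block and offsets (0.00617). It was -0.15 with a filter at 1 CPM (0.03), -0.20 with total count scaling (0.0166) and -0.21 with upper quartile scaling (0.00943). In pair 1 the order was turned, with 141.3 CPM in the library labelled CR31B and 117.6 CPM in that labelled DMSO. B4GALNT1 shares 26.7% of its exonic bases with SLC26A10P on the opposite strand. The name of the deposited counts holds the word reverse, which may refer to the strand setting of the counting. That setting is not described otherwise in the sources used here, so whether the reads of both were separated was not tested. SLC26A10P itself had 1.86 CPM and a log2 fold change of -0.23 (edgeR adjusted p = 0.219).

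ST3GAL5, the GM3 synthase (ENSG00000115525, chr2:85837120-85905199, minus strand), was counted at 8.29, 10.2 and 8.24 CPM in CR31B replicates 2, 3 and 4 and at 11.7, 10.9 and 9.30 CPM in the DMSO libraries. The groups overlapped, since CR31B replicate 3 lay above DMSO replicate 4. Its log2 fold change was -0.25 ± 0.12 (SE, n = 3 per group, edgeR adjusted p = 0.106), with a 95% interval of -0.51 to 0.0039. The replicate block (-0.26, adjusted p = 0.0328) and the GC and length offsets (-0.48, adjusted p = 0.0053) each took ST3GAL5 past the threshold, as did leaving out CR31B replicate 3 (-0.36, adjusted p = 0.0247). Pair 1 gave 13.2 CPM for the library labelled CR31B and 10.03 CPM for that labelled DMSO. At 368 to 747 counts per library, counting alone gave an error of up to 5.21%.

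Ratios of counts within a library do not depend on scaling, and 2 were taken after the values above had been seen, so they carry no test. The log2 ratio of ST8SIA1 to ST3GAL5 was 1.09 ± 0.020 (SD, n = 3) in the single-end CR31B libraries and 0.54 ± 0.098 in the single-end DMSO libraries. In pair 1 it was 0.31 under the CR31B label and 0.89 under the DMSO label. The log2 ratio of B4GALNT1 to ST8SIA1 was 2.64 ± 0.17 and 3.05 ± 0.046 in the single-end CR31B and DMSO libraries. Within the single-end libraries the GD3 synthase transcript was thus higher relative to both its neighbours in the pathway, and in pair 1 lower. These ratios were taken without the GC and length offsets, with which the rise of ST8SIA1 was lost.

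The wider ganglioside synthesis list had 18 genes, of which 17 were tested in the single-end libraries. Of these 5 rose and 2 fell, against 23.8% and 17.6% of all genes, and the median log2 fold change was 0.05. ST3GAL1 and ST3GAL2, which sialylate the terminal galactose of longer gangliosides, rose by 0.76 ± 0.070 and 0.35 ± 0.077 (SE). ST8SIA3, a sialyltransferase that makes disialyl and oligosialyl groups, rose by 0.23 ± 0.067, and UGCG, which makes glucosylceramide at the entry of the pathway, rose by 0.16 ± 0.048 (named after its value was seen). B4GALT5, a lactosylceramide synthase acting directly before ST3GAL5, fell by 0.71 on the log2 scale, from 171.7 ± 1.2 to 104.9 ± 7.58 CPM (SD, n = 3), and B3GNT5, which diverts lactosylceramide to lacto-series lipids, fell by 0.17. The split changed to 2 higher and 5 lower with GC and length offsets and with upper quartile scaling, and to 2 higher and 4 lower with total count scaling. With the replicate block 4 genes were lower. Leaving out 1 library gave 2 higher without DMSO replicate 2 or 4, 3 without DMSO replicate 3, and 1 lower without CR31B replicate 2 or 4 or DMSO replicate 3 or 4. ST8SIA3 was lost with the offsets, with upper quartile and total count scaling and without DMSO replicate 2 or 4, and B3GNT5 was lost without any of 5 of the 6 libraries, DMSO replicate 2 being the other.

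Of 16 tested genes of ceramide supply 4 rose and 3 fell, shares near the 23.8% higher and 17.6% lower of all genes. CERT1, the ceramide transfer protein, rose by 0.40 ± 0.052 and KDSR, a reductase of sphingoid base synthesis, by 0.35 ± 0.070. ORMDL2 and ORMDL3, brakes on serine palmitoyltransferase, fell by 0.32 and 0.29. With GC and length offsets 1 gene of this list was higher and 5 were lower, CERT1 and KDSR no longer passing, and with the replicate block 5 were lower. Of 11 genes of sialic acid and sugar nucleotide supply 3 rose and 3 fell. GNE, the first enzyme of sialic acid synthesis, rose by 0.34 ± 0.059, whereas the UDP-galactose transporter SLC35A2 fell by 0.41. CMAS, which activates sialic acid and lies next to ST8SIA1 on chromosome 12, had a log2 fold change of -0.01 (edgeR adjusted p = 0.943).

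The breakdown side was mostly lower. Of 16 tested genes of ganglioside breakdown 9 fell and 1 rose, with a median log2 fold change of -0.22. Among all genes 17.6% were lower and 23.8% higher, and the difference from them was not tested. PSAP, precursor of the saposins that present glycolipids to lysosomal hydrolases, fell from 247.4 ± 4.29 to 160.9 ± 3.96 CPM (SD, n = 3), a log2 change of -0.62 ± 0.047 (SE, edgeR adjusted p = 5.47e-06). GBA2, a glucosylceramidase outside the lysosome, fell by 0.50, and the alpha-galactosidase GLA by 0.48. Others that fell included NEU1, HEXA, GM2A, GALC and CTSA. NEU3, a sialidase of the plasma membrane that acts on gangliosides, was the gene that rose, by 0.26 ± 0.061, a call lost with upper quartile and total count scaling. In pair 1 PSAP, GBA2 and GLA had differences of 0.78, 0.64 and 0.39, and NEU3 -0.40. Whether fewer cells or less RNA per cell lay behind any of these levels cannot be told apart in bulk RNA.

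**Figure D2:**
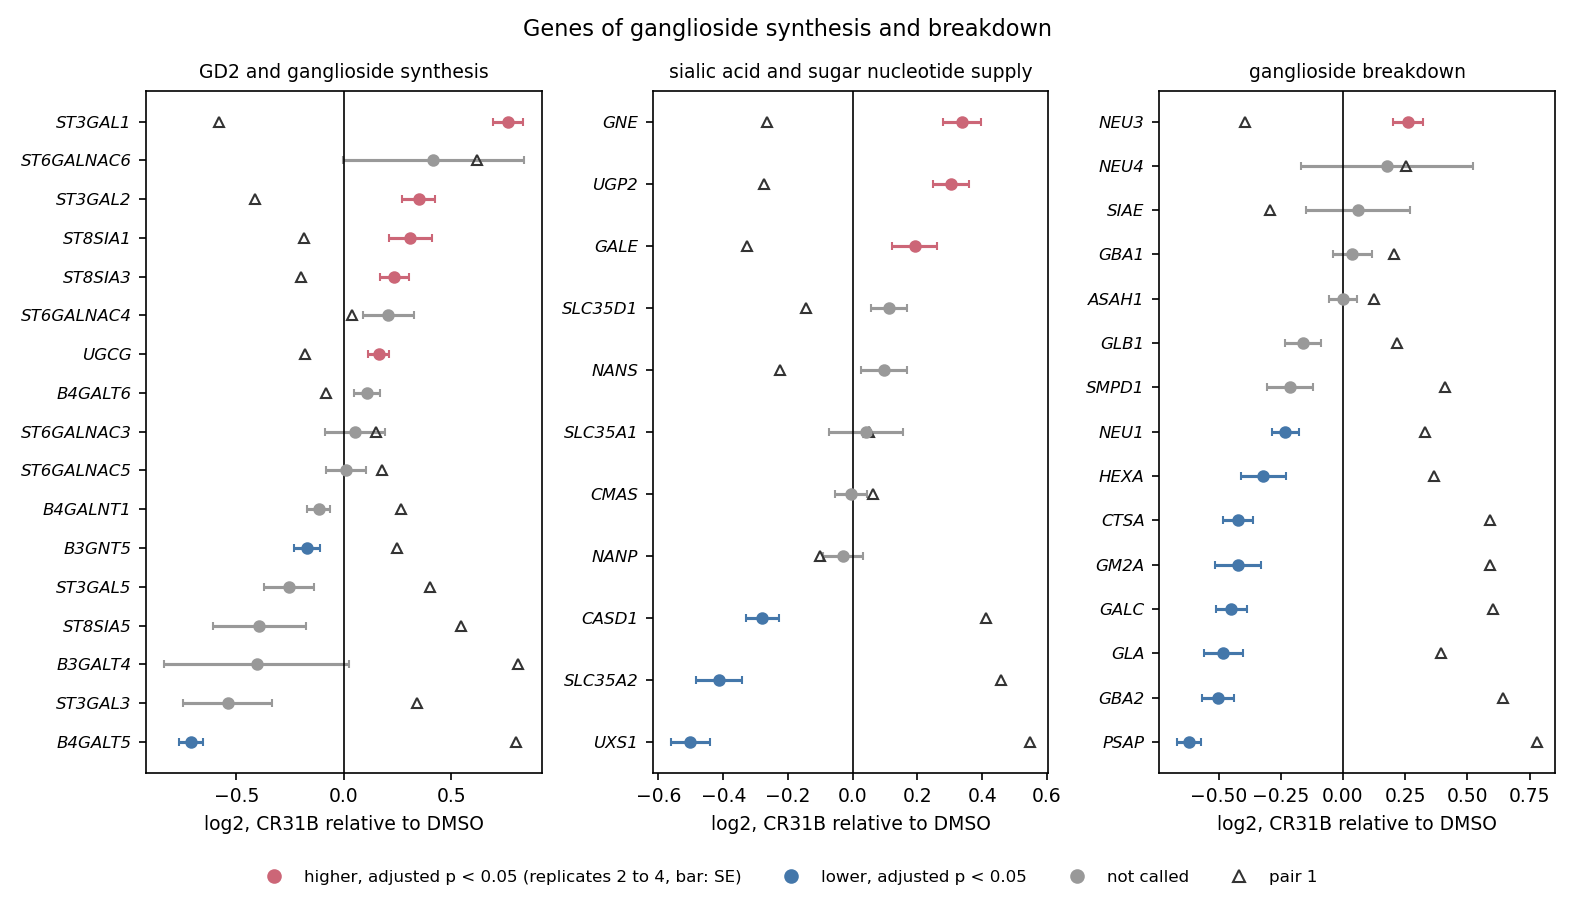
Log2 fold change in the 6 single-end libraries with its SE (circles, x axis) for genes of ganglioside synthesis, of sialic acid and sugar nucleotide supply and of ganglioside breakdown, with the pair 1 difference as triangles. In the breakdown panel the blue circles lie at negative values, and their triangles lie to the right of 0, with PSAP at -0.62 and 0.78.

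GPC2 and CD276 fell in the single-end CR31B libraries and had the largest changes of the 8 genes. GPC2, a glypican of the developing nervous system (ENSG00000213420, chr7:100169606-100177372, minus strand), stood at 37.8, 34.3 and 37.9 CPM in CR31B replicates 2, 3 and 4 and at 57.1, 51.2 and 53.2 CPM in the DMSO libraries. The groups were well separated. The log2 fold change was -0.55 ± 0.064 (SE, n = 3 per group, edgeR adjusted p = 7.43e-05), a 1.47-fold lower level with a log2 interval of -0.69 to -0.41. In pair 1 the library labelled CR31B held 70.0 CPM and that labelled DMSO 40.5 CPM, a log2 difference of 0.79. Treatment by layout differed for GPC2 by 1.34 ± 0.13 on the log2 scale (SE, edgeR interaction, adjusted p = 2.02e-05).

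CD276 (ENSG00000103855, chr15:73683966-73714518, plus strand) stood at 107.1, 103.3 and 103.6 CPM in CR31B replicates 2, 3 and 4 and at 155.6, 150.5 and 144.7 CPM in the DMSO libraries. Both groups were tight and lay far apart. CD276 fell by a log2 fold change of -0.52 ± 0.049 (SE, n = 3 per group, edgeR adjusted p = 1.96e-05), a 1.43-fold lower level with a log2 interval of -0.63 to -0.41. In pair 1 the values were 163.4 CPM under the CR31B label and 105.5 CPM under the DMSO label, so that each library fell among the single-end values of the other label or beyond them. GPC2 and CD276 passed the threshold in each of 19 alternatives run on the single-end libraries, with adjusted p of at most 0.0036 in any of them. Across the 8 libraries their log2 CPM correlated with r = 0.96, a description over points that mix both treatments and both layouts.

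Because GPC2 and CD276 moved together and the less stable ST8SIA1 estimate had the other sign, the 250 bases before the RefSeq start of each are shown (GRCh38.p14, read 5′ to 3′ on the strand of the gene, the most upstream start where RefSeq lists several). Promoters were matched for 5 of the 8 genes, ST8SIA1, ST3GAL5, GPC2, CD276 and L1CAM, and not for B4GALNT1, NCAM1 and DLK1. Capitals mark GC boxes (GGGCGG) and CCAAT boxes (CCAAT) on either strand. The windows are chr7:100177382-100177631 on the minus strand, chr15:73684133-73684382 on the plus strand and chr12:22334708-22334957 on the minus strand. Those of CD276 and ST8SIA1 lie inside the GENCODE gene spans given here, which start farther upstream than the RefSeq starts used.
GPC2: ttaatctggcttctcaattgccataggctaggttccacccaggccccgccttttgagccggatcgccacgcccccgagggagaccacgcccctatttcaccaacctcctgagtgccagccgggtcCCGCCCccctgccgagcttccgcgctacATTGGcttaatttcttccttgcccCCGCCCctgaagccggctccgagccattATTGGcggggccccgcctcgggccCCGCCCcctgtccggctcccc
CD276: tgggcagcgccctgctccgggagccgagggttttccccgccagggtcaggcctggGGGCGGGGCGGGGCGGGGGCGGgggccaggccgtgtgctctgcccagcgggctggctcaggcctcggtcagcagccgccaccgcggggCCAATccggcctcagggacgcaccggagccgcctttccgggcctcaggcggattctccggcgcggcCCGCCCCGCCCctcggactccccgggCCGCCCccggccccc
ST8SIA1: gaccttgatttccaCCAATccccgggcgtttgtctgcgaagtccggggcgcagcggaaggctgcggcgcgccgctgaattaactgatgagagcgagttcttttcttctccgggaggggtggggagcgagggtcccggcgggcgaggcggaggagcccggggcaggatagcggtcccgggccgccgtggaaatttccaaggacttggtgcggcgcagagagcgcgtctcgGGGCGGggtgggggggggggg

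The CD276 window held 7 GC box matches, some of them overlapping, and 1 CCAAT match, and its GC content was 80.8%. The GPC2 window held 3 and 2, and the ST8SIA1 window 1 and 1. ST3GAL5 had 2 and 1, and L1CAM 2 GC boxes and no CCAAT. Of 35116 RefSeq promoter windows of the same length 42.6% held a GC box and 32% a CCAAT box. None of the 5 windows held the E-box CACGTG (6.34% of windows), the TATA box TATAAA (10.7%) or TGATGNAA (3.14%), and ST3GAL5 alone held TGACGTCA (1.65%). A match is a run of letters and was not tested as a binding site.

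The glypican list showed both directions, with GPC2 and GPC1 lower, GPC6 higher and GPC3 not called at -0.33 ± 0.16 among 4 tested genes. GPC6 rose from 95.1 ± 8.15 to 129.4 ± 4.38 CPM (SD, n = 3) and GPC1 was 76.4 ± 7.36 and 61.6 ± 7.37 CPM in DMSO and CR31B (edgeR adjusted p = 0.0199), a call lost without CR31B replicate 4 or DMSO replicate 2, which left 1 glypican lower. Of 21 tested genes of heparan sulfate assembly 11 rose and 3 fell, with a median of 0.20. Among all genes 23.8% rose and 17.6% fell, and the difference from them was not tested. HS2ST1, a sulfotransferase of the heparan sulfate chain, rose by 0.57 ± 0.048 and EXT1, a chain polymerase, by 0.54 ± 0.055 (EXT1 named after its value was seen). NOTUM, which is counted in this list but is an esterase that inactivates WNT proteins, rose by 0.79 ± 0.096 from 7.48 CPM. The genes that fell, B3GALT6, B3GAT3 and B4GALT7, build the linker between core protein and chain, and they fell by 0.68, 0.37 and 0.24. With GC and length offsets 7 genes of this list were higher, as without CR31B replicate 4, and B4GALT7 was lost without CR31B replicate 3 or 4 or DMSO replicate 2 or 3.

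Genes for the GPI anchor that holds GPC2 in the membrane numbered 24 tested, of which 11 fell and 2 rose, with a median log2 fold change of -0.17. Of all genes 17.6% fell and 23.8% rose, and the difference from them was not tested. PIGU and PIGT, subunits of the transamidase that joins anchor and protein, fell by 0.62 and 0.34, and DPM2, of dolichol-phosphate-mannose synthesis, fell by 0.35. PIGC rose by 0.24 ± 0.049 and PIGM by 0.22 ± 0.053. With the replicate block and GC and length offsets together 19 were lower, and with upper quartile scaling 17, whereas 7 were lower without DMSO replicate 2. With the replicate block alone 4 were higher, and PIGM was lost with the GC and length offsets, with upper quartile and total count scaling and without replicate 4. In the B7 family CD276 was 1 of only 2 genes that passed the filter, beside NCR3LG1, and CD80, CD86, PDCD1LG2 and ICOSLG had 0 counts in all 8 libraries. CD274 reached at most 0.0808 CPM.

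Of the adhesion molecules NCAM1 rose. L1CAM did not pass the main test, which has no replicate block, and passed as higher with the block. NCAM1 (ENSG00000149294, chr11:112961247-113278436, plus strand) stood at 182.2, 205.5 and 220.1 CPM in CR31B replicates 2, 3 and 4 and at 170.2, 156.9 and 164.8 CPM in the DMSO libraries. The groups did not overlap, and the margin was smallest in pair 2. NCAM1 rose by 0.31 ± 0.070 on the log2 scale (SE, n = 3 per group, edgeR adjusted p = 0.0053). In pair 1 NCAM1 was 186.8 CPM under the CR31B label and 237.5 CPM under the DMSO label, the highest value of all 8 libraries. The call was lost with GC and length offsets (0.16, adjusted p = 0.0906), regained with the replicate block added to them (adjusted p = 0.0233), and lost without replicate 4 (0.25, adjusted p = 0.0719). NCAM1-AS1 and another gene share 5.52% of its exonic bases on the opposite strand.

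L1CAM (ENSG00000198910, chrX:153861514-153886174, minus strand) stood at 145.4, 174.7 and 164.5 CPM in CR31B replicates 2, 3 and 4 and at 145.5, 150.5 and 137.5 CPM in the DMSO libraries. The groups overlapped through pair 2, whose libraries were nearly equal. L1CAM had a log2 fold change of 0.16 ± 0.069 (SE, n = 3 per group, edgeR adjusted p = 0.087). Under the replicate block the adjusted p was 0.0262, with the block and GC and length offsets 0.0532, and without CR31B replicate 2 it was 0.012 (0.23). In pair 1 the labelled CR31B library held 178.3 CPM and the labelled DMSO library 172.2 CPM. Both paired-end libraries were thus above the DMSO single-end libraries, and L1CAM was the member with the smallest pair 1 difference, 0.05.

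Of 15 tested genes of the L1 and contactin families 2 rose and 1 fell, where 23.8% of all genes rose and 17.6% fell. CNTNAP1, a contactin-associated protein of axons, rose from 24.1 ± 0.50 to 55.1 ± 6.78 CPM (SD, n = 3) and NRCAM, an L1 relative, from 58.9 ± 4.48 to 92.6 ± 7.49 CPM. With the replicate block 7 of the 15 were higher, and without CR31B replicate 2 there were 5. No gene of the list was lower without CR31B replicate 2 or 3 or DMSO replicate 3. In the NCAM and polysialylation list 3 of 14 rose and 3 fell. ALCAM rose by 0.58 ± 0.088 and GFRA1, a GDNF co-receptor that NCAM1 can pair with, by 0.47 ± 0.10. ST8SIA2, which builds polysialic acid on NCAM1, fell from 161.6 ± 8.41 to 105.4 ± 5.62 CPM, a log2 change of -0.62 ± 0.058 (SE, edgeR adjusted p = 2.09e-05). The log2 ratio of ST8SIA2 to NCAM1 counts, taken after these values were seen and not tested, was -0.94 ± 0.13 (SD, n = 3) in the single-end CR31B libraries and -0.02 ± 0.13 in the single-end DMSO libraries. In pair 1 it was -0.21 and -1.22 under the same labels.

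Surface antigens can be cut from the membrane, and of 13 tested shedding genes 4 rose and 3 fell. Among all genes 23.8% rose and 17.6% fell. PSEN2, a catalytic subunit of gamma-secretase, rose by 0.25 ± 0.061, a call lost with upper quartile and total count scaling, while APH1A, a further subunit of the complex, fell by 0.40. ADAM17, a sheddase, had 0.18 ± 0.052 and turned to -0.05 with GC and length offsets, which left 2 genes higher and 5 lower. It was also lost with upper quartile and total count scaling, and without CR31B replicate 4 or DMSO replicate 3 or 4, each of which left 2 genes higher.

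DLK1 did not differ detectably in any comparison. DLK1 (ENSG00000185559, chr14:100725705-100738224, plus strand) stood at 8.86, 6.40 and 8.26 CPM in CR31B replicates 2, 3 and 4 and at 10.7, 7.67 and 6.87 CPM in the DMSO libraries. The groups overlapped, and pair 4 differed in sign from pairs 2 and 3. The log2 fold change was -0.11 ± 0.17 (SE, n = 3 per group, edgeR adjusted p = 0.656) with a 95% interval of -0.49 to 0.28, which takes in changes of either sign. Pair 1 gave 12.68 and 11.02 CPM for the CR31B and DMSO labels. DLK1 had the fewest counts of the 8 genes, 353 in DMSO replicate 4.

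Around DLK1, of the imprinted genes on 14q32 only MEG3 and MEG8 could be tested beside it, and none of these 3 was called. MEG3 had -0.31 ± 0.13 (SE, edgeR adjusted p = 0.0922), and with the replicate block 2 genes of the locus were lower, as 1 was without CR31B replicate 2 or DMSO replicate 3. Among 12 genes for DLK1 relatives, NOTCH ligands and receptors 5 rose and 1 fell, with a median of 0.37. The shares of all genes were 23.8% and 17.6%, and the difference from them was not tested. DLL1, JAG2 and DLK2 rose by 0.71 ± 0.12, 0.49 ± 0.10 and 0.44 ± 0.11. NOTCH1 rose by 0.44 ± 0.060 and JAG1 by 1.04 ± 0.14 (both named after their values were seen). DLL3, an inhibitory ligand and itself a therapy target in neuroendocrine tumours, fell from 127.4 ± 13.8 to 66.6 ± 15.8 CPM (SD, n = 3). Under the replicate block 2 genes of this list were lower.

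**Figure D3:**
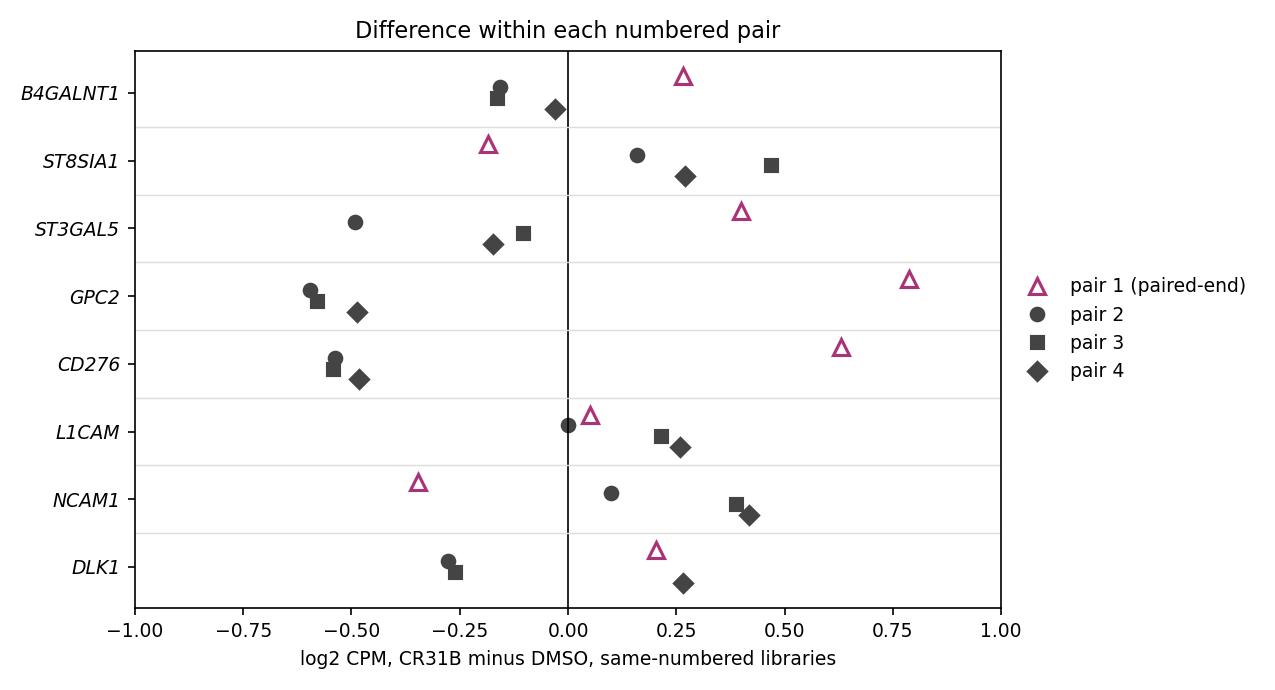
Difference in log2 CPM between same-numbered libraries, CR31B minus DMSO (x axis), for each of the 8 genes, with pairs 2, 3 and 4 as filled symbols and pair 1 as an open triangle. For GPC2 pairs 2 to 4 lie at -0.60 to -0.49 and pair 1 at 0.79. For L1CAM pair 1 lies at 0.05, between pairs 2 and 3.

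The difference between pair 1 and pairs 2 to 4 passed edgeR's interaction test for 5 of the 8 genes, GPC2, CD276, ST3GAL5, B4GALNT1 and NCAM1, against 42.5% of all genes. It was not called for ST8SIA1 at -0.49 ± 0.20 (SE, edgeR adjusted p = 0.0723), L1CAM at -0.11 ± 0.14 or DLK1 at 0.31 ± 0.34. Without CR31B replicate 2 the ST8SIA1 difference passed (adjusted p = 0.0481), and that of ST3GAL5 was lost (adjusted p = 0.0642), as it was without CR31B replicate 4 or DMSO replicate 2 or 3 (0.087, 0.071 and 0.069). Over the 8 genes the pair 1 differences had a median of 0.23, against 0.0062 over all tested genes. Of the 8 differences 6 were positive, and the share of positive ones among all genes was not computed.

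Levels between genes were compared per kilobase of exon, as the mean TMM-scaled CPM per kb over the 8 libraries. CD276 was highest at 23.3 ± 4.79 (SD, n = 8 libraries), followed by L1CAM at 21.8 ± 2.16, B4GALNT1 at 15.5 ± 1.16, NCAM1 at 15.0 ± 2.22 and GPC2 at 12.5 ± 3.20. DLK1, ST8SIA1 and ST3GAL5 were far lower at 1.71 ± 0.417, 1.19 ± 0.161 and 0.627 ± 0.104. In this order CD276 and L1CAM overlapped over the libraries, as did B4GALNT1, NCAM1 and GPC2, and DLK1 and ST8SIA1. The lowest L1CAM value lay above the highest of B4GALNT1, the lowest of GPC2 above the highest of DLK1, and the lowest of ST8SIA1 above the highest of ST3GAL5. CD276 lay above 86.9% of tested genes and ST3GAL5 above 23.2%. In the single-end DMSO libraries CD276 stood at 27.1 ± 0.982 CPM per kb and L1CAM at 19.9 ± 0.902 (n = 3), and in the single-end CR31B libraries L1CAM was at 22.2 ± 2.04 and CD276 at 18.9 ± 0.387. The order below them also differed by group. In DMSO B4GALNT1 was followed by GPC2 at 14.1 and NCAM1 at 12.9, and in CR31B NCAM1 at 15.9 stood above B4GALNT1 at 14.7 and GPC2 at 9.58. The transcript of B4GALNT1, the last enzyme of the GD2 route, was thus far more abundant per length than those of both enzymes before it. B4GALNT1 shares 26.7% of its exonic bases with SLC26A10P, and whether their reads were separated was not tested. With the longest transcript as the length NCAM1 (31.5) moved to the second place, above L1CAM (30.8). ST8SIA1 (mean 1.78) and ST3GAL5 (mean 1.66) then overlapped over the libraries, so their separation depended on the length used.

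**Figure D4:**
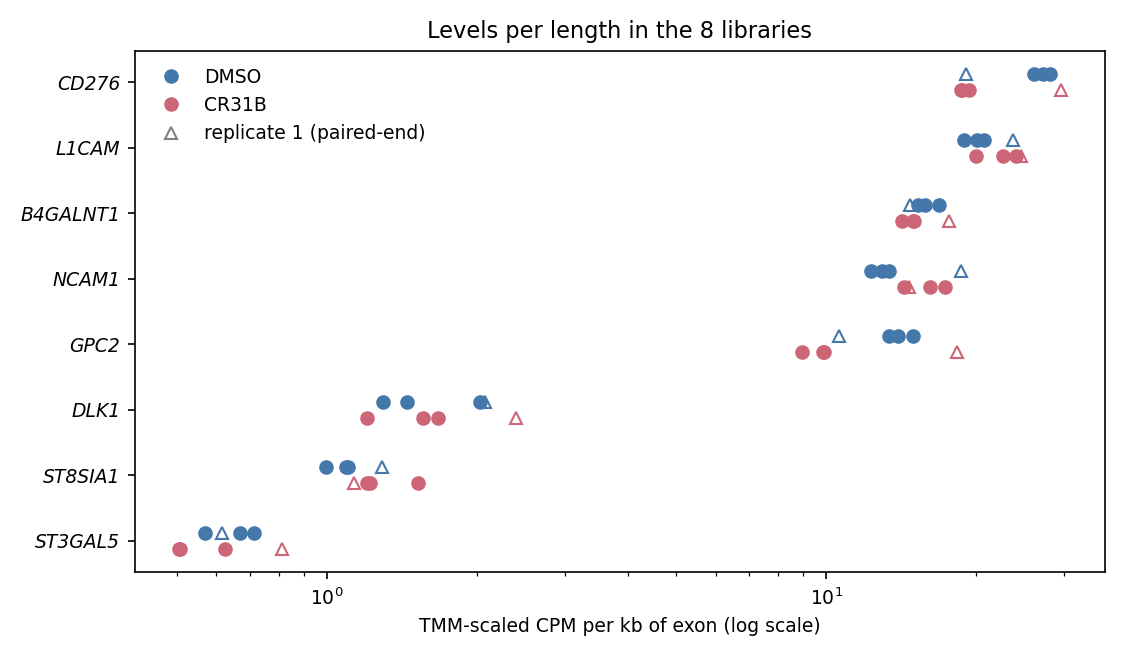
TMM-scaled CPM per kb of exon (x axis, log scale) in each of the 8 libraries, by label and layout, for the 8 genes in order of their mean. CD276, L1CAM, B4GALNT1, NCAM1 and GPC2 form the upper group, and DLK1, ST8SIA1 and ST3GAL5 lie apart at lower levels with means of 1.71, 1.19 and 0.627.

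For each gene the transcripts most alike in log2 CPM over the 8 libraries were found among 10693 genes. CD276 followed SPIDR (r = 0.997) and PSAP (r = 0.995), and 1315 genes had r over 0.9 with it. GPC2 followed CTSA (0.994) and CDK19 (0.993), with 894 genes over 0.9. NCAM1 was closest to BCL11A (0.982) and ME2 (0.980), and ST8SIA1 to FMN1 (0.974) and TMEM81 (0.973). For B4GALNT1 they were ARG2 (0.983) and HCN3 (0.978), and for ST3GAL5 MTARC1 (0.976) and ARL6IP5 (0.971). L1CAM was closest to GDPD1 (0.984) and SEZ6L2 (0.958), with 34 genes over 0.9, and DLK1 to RTN4R (0.967) and CORO2B (0.964), with 39. The 8 points mix both treatments and both layouts and differ in depth, so the values are descriptions.

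Other surface targets of neuroblastoma therapy moved in both directions, with 7 of 20 tested higher and 5 lower. The shares of all genes were 23.8% and 17.6%, and the difference from them was not tested. ROR1, a receptor tyrosine kinase-like protein, rose from 24.0 ± 1.6 to 49.1 ± 6.65 CPM (SD, n = 3), and GFRA2, a GPI-anchored neurturin receptor, from 434.4 ± 26.8 to 730.6 ± 28.8 CPM. ALK, a kinase mutated in some neuroblastomas, rose by 0.44 ± 0.059. CD24, a small GPI-anchored sialoglycoprotein, fell from 998.1 ± 27.2 to 714.1 ± 20.4 CPM. SLC6A2, the noradrenaline transporter used for MIBG imaging, fell by 0.30 and SORT1 by 0.33. With GC and length offsets 4 were higher, and without DMSO replicate 3 or 4 there were 3 lower, SLC6A2 no longer passing.

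Genes by which immune cells see a tumour cell were few and uneven. Of 7 tested NK cell ligands 3 rose and 1 fell, where 23.8% of all genes rose and 17.6% fell. ULBP1, a ligand of the receptor NKG2D, rose from 4.77 ± 0.772 to 13.6 ± 2.06 CPM (SD, n = 3), NECTIN2 by 0.85 ± 0.11 and PVR by 0.25 ± 0.061, whereas ULBP3 fell by 0.45. Of 9 tested genes of MHC class I presentation 2 rose and 3 fell, the latter being the chaperones CALR, PDIA3 and CANX. CALR fell from 561.1 ± 39.5 to 340.2 ± 16.0 CPM. HLA-B was counted at no more than 0.0485 CPM in the 8 libraries, while B2M ranged from 166 to 218 CPM. The rise of PVR was lost with upper quartile scaling and without replicate 4. The fall of ULBP3 was lost with GC and length offsets and without CR31B replicate 2 or 4 or DMSO replicate 2 or 3, and that of CANX without CR31B replicate 2 or DMSO replicate 2. Without CR31B replicate 4 or DMSO replicate 4 no gene of the MHC list was higher, and without CR31B replicate 3 or DMSO replicate 2 there was 1.

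**Figure D5:**
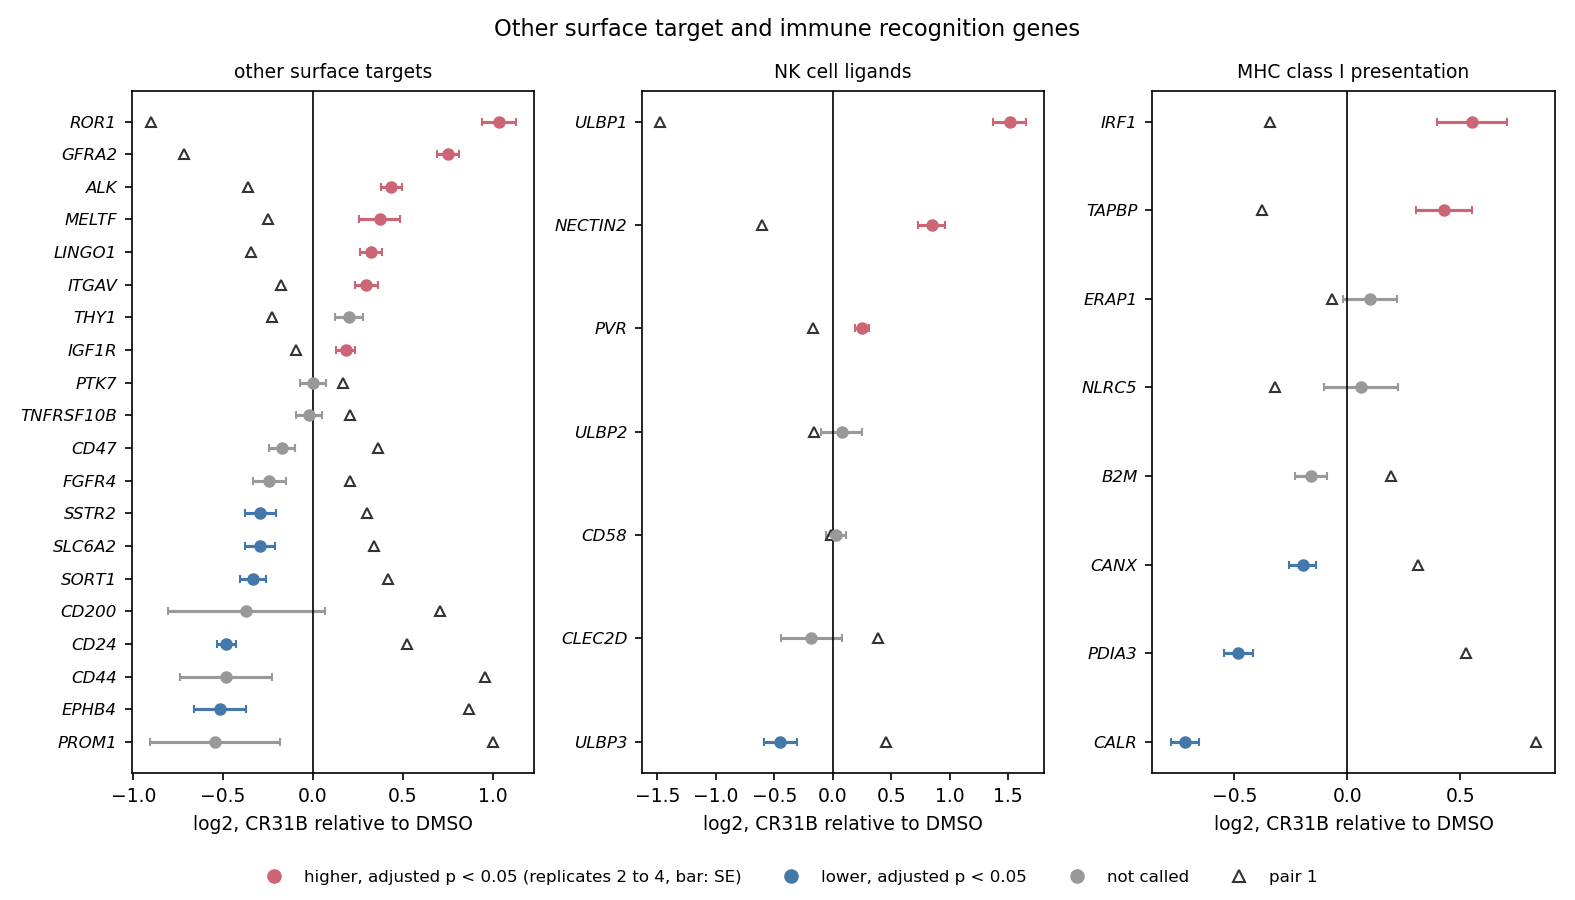
Log2 fold change in the 6 single-end libraries with its SE (circles, x axis) for genes of 3 lists, other surface targets, NK cell ligands and MHC class I presentation, with the pair 1 difference as triangles. ULBP1 stands farthest right in the NK panel at 1.51 with its triangle at -1.47, and CALR farthest left in the MHC panel at -0.72.

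Markers of the labelled cell type were present. The 16 adrenergic neuroblast markers summed to 4285 to 6172 CPM in DMSO and to 4337 to 6719 CPM in CR31B, with PHOX2A at 387 to 576 CPM in the 8 libraries and TH at 1.77 to 3.03 CPM. Both sums include replicate 1 as labelled, so their ranges do not compare the treatments. Within the single-end libraries 9 of the 16 rose and 4 fell, against 23.8% and 17.6% of all genes, a difference that was not tested. GATA3 rose from 258.8 ± 17.7 to 886.0 ± 71.6 CPM (SD, n = 3), TBX2 by 1.31 ± 0.14 and HAND2 by 0.97 ± 0.059, while DBH, which makes noradrenaline, fell by 0.98 and STMN2 by 0.81. Of 9 tested mesenchymal-type markers 2 rose and none fell, FOSL2 by 1.66 ± 0.087 and VIM by 0.36 ± 0.10, and PRRX1 and AXL had 0 counts. With the replicate block 4 mesenchymal-type markers were higher, as without CR31B replicate 2, and VIM was lost with upper quartile scaling, without CR31B replicate 4 or DMSO replicate 2 and without pair 3 or 4. Blood cell markers summed to at most 1.32 CPM in any library, with CD3E, CD68 and HBB at 0. Schwann cell and glia markers summed to 14.3 to 23.4 CPM, with SOX10, GFAP and CDH19 at 0, and fibroblast and endothelial markers to 33.2 to 51.8 CPM. The part of these markers in the values of the 8 genes was not tested.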

How the data were processed

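Polyadenylated RNA of 8 IMR32 libraries was analysed, 4 per group. The authors deposited 1 table of raw counts per Ensembl gene. Per the submitters' processing notes, FastQC 0.11.7, STAR 2.7.2b, edgeR 3.36.0, limma 3.50.3 and GRCh38 were used, in roles they do not give. Per the labels' protocols, 250 ng of RNA, 15 PCR cycles and 75 sequencing cycles were used. The protocol's kit is one for small RNA, while the labels list polyadenylated RNA as the molecule. No molecular identifiers are described, so the counting error given for a gene covers counting only. One column header, for CR31B replicate 4, misses a leading letter, and its remaining text identified the sample. Of 58787 identifiers 58515 were in GENCODE release 29, which gave symbols, coordinates and lengths.

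The test was that of edgeR 4.0.16, run in R 4.3.3 (quasi-likelihood, filterByExpr, TMM scaling, Benjamini-Hochberg adjustment over all tested genes, threshold 0.05, two-sided). All 8 libraries were fitted with layout as a covariate, the 6 single-end libraries were fitted alone, and the treatment by layout interaction was tested. Pair 1 is a log2 CPM difference with a prior count of 1 and has no replicate check. Alternatives used DESeq2 1.42.0 and limma 3.58.1, other scalings and filters, loess offsets (span 0.4) on GC content and length, a replicate block, and leaving out libraries. The GC content was that of the longest transcript, and the length that of all exons. Deviations of same-numbered single-end libraries from their group means correlated at 0.206, 0.384 and 0.157 (replicates 2, 3 and 4), which by the rule used here makes them pairs. The main test left this pairing out, and the replicate block took it in. The smallest mean chi-square per gene between libraries was 7.28, where 1 would mark repeat draws of 1 library, and each library counted as its own replicate. The scripts were tested on simulated data.

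The 8 genes and 21 lists with 301 symbols were chosen with earlier results of these data known. The genes named were the 8, then from each list up to 3 per direction with an adjusted p under 0.05 in the single-end libraries, one direction in pairs 2 to 4 and a mean of 5 CPM or more, by size of change, then the 2 genes most correlated with each of the 8. Promoter sequences are from RefSeq. A few list genes stay in the counts and are not reported by name or drawn here.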

Additional observations from a re-analysis of the deposited data

Results flagged for a closer look

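A library far from the other 3 of its group was found for 3 of 16 group values of the 8 genes. In each the distant library was replicate 1. A rate of 1 in 20 would give about 0.8, but it does not apply here. Pair 1 turned the sign of 98.9% of the genes called in replicates 2 to 4, and the 16 values share the same 8 libraries. The share over all genes was not computed, so the count is no result about these 8 genes. The gap to the nearest library took 0.898 of the group's range for GPC2 in CR31B (70.0 CPM against 34.3 to 37.9), 0.936 for CD276 in CR31B (163.4 against 103.3 to 107.1) and 0.836 for NCAM1 in DMSO (237.5 against 156.9 to 170.2). Of 150 group values of the named list genes 33 had such a library, and in 31 of them it was replicate 1. Those genes were chosen for a call and a common direction in replicates 2 to 4, which keeps these libraries close to each other, so the rate of 1 in 20 does not apply and nothing is read from that count.

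The treatment difference differed between the paired-end pair and the single-end pairs by edgeR's interaction test (Benjamini-Hochberg, pair 1 minus pairs 2 to 4) for 5 of the 8 genes, at 0.38 on the log2 scale for B4GALNT1, 0.66 for ST3GAL5, 1.34 for GPC2, 1.15 for CD276 and -0.65 for NCAM1. The same test was passed by 75 of 75 named list genes and by 42.5% of all genes. The named genes were chosen on the single-end contrast that enters this test, so their count is no result about them. The paired-end layout holds 1 library per label.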

How the results depend on the processing

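In the single-end libraries GPC2 and CD276 kept their calls in all 19 alternatives, NCAM1 in 17 and ST8SIA1 in 9. Higher genes among the 8 numbered 0 with GC and length offsets, and 1 with the replicate block plus these offsets, with upper quartile scaling and with total count scaling. Lower genes numbered 4 with the replicate block, with the offsets, with both and with upper quartile scaling. The shares of all genes by direction are not set beside these counts, so the counts are no result about the 8 genes. All genes lower numbered 4595 with block and offsets and 4509 with upper quartile scaling, whose split was 3010 higher and 4509 lower against 3968 and 2933, and with total count scaling 3181 and 4194. The replicate block raised the genes called to 8540, and beyond the calls given with the results it changed none of the 8. Of 75 named list genes 48 were called in every alternative, 27 were lost in at least 1 and 8 with the offsets. ADAM17 turned to -0.049 with the offsets and -0.048 with block and offsets. Leaving out libraries or pairs gave 3981 to 6727 genes (2606 to 3949 higher, 1375 to 2809 lower), the lowest each time without replicate 4, with 0 to 3 of the 8 higher and 2 to 3 lower, and DLK1 between -0.27 and 0.11.

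Over all 8 libraries, leaving out replicate 1 of CR31B, of DMSO or of both gave 6920, 6906 and 6901 genes. Any other library or pair gave 0, so up to 3974 were higher, up to 2954 lower and 0 to 2 of the 8 genes were called in each direction. With either replicate 1 library left out, the other was the only paired-end library, and the layout covariate took it up fully. The treatment estimate then came from the single-end libraries alone, as it did without both. These leave-outs thus repeat the single-end result and cannot show what either replicate 1 library did by itself. Uncalled estimates ran from -0.12 to 0.023 for B4GALNT1, -0.25 to 0.042 for ST3GAL5 and -0.11 to 0.14 for DLK1.

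In the interaction test upper quartile scaling gave 4811 genes higher, L1CAM turned to 0.097 with upper quartile and 0.062 with total count scaling, and 2 of the 8 were lower without CR31B replicate 2. Pair 1 with total count scaling was 0.36 for B4GALNT1, 0.88 for GPC2 and 0.73 for CD276. With the longest transcript as length, levels were 37.2 CPM per kb for CD276, 30.8 for L1CAM, 22.3 for B4GALNT1, 31.5 for NCAM1, 18.9 for GPC2, 1.78 for ST8SIA1 and 1.66 for ST3GAL5. Apart from the effects of fewer libraries, the cause was not tested. Of the 8 genes DLK1 and ST3GAL5 had the largest counting errors, 5.32% and 5.21% at their lowest counts. The part of depth in the spread between libraries was not tested.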
